A study of Mus musculus with 36 samples.

Results

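Of the genes of the NRF2 antioxidant pathway, 10 were followed through retinoid treatment of intestinal organoids: the regulators Nfe2l2 and Keap1, and the enzymes Gclc, Gclm, Txnrd1, Srxn1, Prdx6, Nqo1, Aldh3a1 and Hmox1. They were listed by name as well-known genes of the pathway, with earlier results of these data known. All 10 were among the 12652 genes measured and all 10 passed the filter on low values. Intestinal organoids are self-organizing cultures of intestinal epithelium, grown here from 2 male wild-type C57BL/6 littermates aged 8 weeks. RNA was prepared in duplicate from each mouse's culture in 9 conditions, each preparation from 3 pooled wells, giving 36 mRNA-seq libraries.

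The conditions were 9-cis retinoic acid (9cisRA, 10 µM), all-trans retinoic acid (atRA, 10 µM), an antagonist of the retinoid X receptor (RXRi, 5 µM; the labels name no compound) and the DMSO vehicle, each at 6 h and 24 h, and cultures taken before treatment at 0 h, which received no DMSO. All cultures had been seeded as single cells and kept to day 3 with inhibitors of ROCK and GSK3 and medium conditioned by Wnt3a-producing cells. Treatment coincided with the withdrawal of these, so changes from 0 h cannot be told apart from those of the medium. Every group was kept in medium with 1 mM N-acetylcysteine, a thiol antioxidant and cysteine source, and no group lacked it. Each condition has 4 libraries but n = 2 mice, both of 1 strain and litter.

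NRF2, the product of Nfe2l2, is a transcription factor that pairs with small Maf proteins and activates genes carrying antioxidant response elements. In unstressed cells KEAP1 holds it in the cytoplasm and presents it to a CUL3 ubiquitin ligase for degradation; oxidants and electrophiles modify cysteines of KEAP1, and NRF2 then accumulates. Its targets make glutathione, reduce thioredoxin and peroxiredoxins, and detoxify quinones, aldehydes and heme. Because NRF2 is set largely by protein turnover, the mRNA of Nfe2l2 is not a measure of its activity. Retinoic acids act through retinoic acid receptors paired with retinoid X receptors. The all-trans form binds retinoic acid receptors, and the 9-cis isomer, which differs in the geometry of a side-chain double bond, can bind both kinds of receptor.

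Levels are in RPKM, which divides reads by gene length and library size, as the authors deposited them. The sums recovered from the table for the listed genes were 19640305 to 30686200 reads per library. Each log2 fold change, on log2(RPKM + 0.5) and with its SE, comes from 1 limma fit to the mouse means of all conditions. A gene was called at a Benjamini-Hochberg adjusted p below 0.05 over the 11361 genes tested. Nothing but the mouse number says that cultures were grown separately. With the mouse in the fit, p-values measure how far differences between conditions vary between these 2 cultures, pooled over all conditions. All 7 epithelial markers (Epcam, Cdh1, Vil1, Krt8, Krt18, Cdx1 and Cdx2) were measured, with summed levels of 6260 to 12400 RPKM over the 36 libraries. None of 6 fibroblast markers was listed in the table used here. Enterocyte markers, 11 of 12 of them tested, differed with condition and are given with Prdx6. At 24 h other lists also differed from DMSO. Cell cycle markers were lower in 9 of 10 with 9cisRA, 9 with atRA and 10 with RXRi, and stem cell markers in 4, 4 and 3 of 5. Of all genes, 23.5%, 18.6% and 30.4% were lower in the same order. With RXRi all 6 tested Paneth markers were lower and 4 of 7 goblet markers higher, where 30.4% of all genes were lower and 31.1% higher. The epithelial sum with RXRi was 11900 to 12400 RPKM against 6260 to 7060 RPKM with DMSO. The part of these shifts in the results was not tested.

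Antioxidant response elements often lie close to the start of a gene. The bases before the start site are shown here for 3 enzyme genes that rose with both retinoic acids and whose windows held a match. Windows without a match are not shown, and for Txnrd1 only the start with a match is. Nfe2l2 also rose and held a match, and its window is not shown. RefSeq promoters (GRCm38.p6) were at hand for 6 of the 10 genes and not for Gclc, Hmox1, Aldh3a1 and Prdx6. Capitals mark matches, on either strand, to the response element core TGACNNNGC or to TGANTCAGC, the form bound by NRF2-related factors with small Maf proteins. Each sequence is 250 bases on the plus strand, ending at the base before the listed start of the promoter. For Gclm this start lies inside the span given below for the gene, which begins at base 122245487.
Srxn1, chr2:152105274-152105523: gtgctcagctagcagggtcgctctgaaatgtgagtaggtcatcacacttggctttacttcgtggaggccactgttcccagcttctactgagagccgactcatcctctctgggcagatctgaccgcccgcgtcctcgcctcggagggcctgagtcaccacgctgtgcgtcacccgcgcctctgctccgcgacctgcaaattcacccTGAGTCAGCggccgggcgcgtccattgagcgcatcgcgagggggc
Gclm, chr3:122245307-122245556: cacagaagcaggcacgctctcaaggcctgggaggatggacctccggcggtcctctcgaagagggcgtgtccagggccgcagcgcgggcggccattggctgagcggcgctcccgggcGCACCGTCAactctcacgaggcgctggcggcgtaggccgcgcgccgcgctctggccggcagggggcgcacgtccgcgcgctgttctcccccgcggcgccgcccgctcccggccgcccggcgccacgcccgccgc
Txnrd1, chr10:82858956-82859205: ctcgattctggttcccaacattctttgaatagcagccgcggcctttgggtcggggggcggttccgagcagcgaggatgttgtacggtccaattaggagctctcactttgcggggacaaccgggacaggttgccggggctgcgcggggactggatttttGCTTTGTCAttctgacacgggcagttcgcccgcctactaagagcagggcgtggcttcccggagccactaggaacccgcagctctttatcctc

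The Srxn1 window holds TGAGTCAGC starting 45 bases before the start site. A match to the response element core, GCTAGGTCA on the opposite strand, begins at base 29 of the transcript. In Gclm a core match on the opposite strand starts 134 bases before the start, and in Txnrd1 the match shown lies 92 bases before the second of its 3 listed starts. The other starts of Txnrd1 and the windows of Nqo1 and Keap1 had no match in the 300 bases searched, which reach 50 bases past the start, while Nfe2l2 had TGACTCCGC 240 bases before its start. Of the 32851 promoters of this length in the table, 12.4% hold the core and 1.19% hold TGANTCAGC. The letters describe these windows and do not show that any factor was bound.

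Nfe2l2 itself was higher with both retinoic acids and lower with the RXR antagonist at 24 h, while Keap1 moved little. Nfe2l2 (Entrez 18024, chr2:75675513-75704663, GRCm38.p6) had 227, 228, 234 and 239 RPKM with 9cisRA at 6 h, 211, 216, 231 and 246 RPKM with atRA, and 154, 160.4, 170.3 and 178 RPKM with DMSO. At 24 h it had 240.2, 247, 237 and 267 RPKM with 9cisRA, 236, 236, 247 and 258 RPKM with atRA, 157, 149, 163 and 164 RPKM with RXRi, and 175, 177, 195 and 195 RPKM with DMSO. No library with a retinoic acid overlapped the DMSO libraries of its time, and those with RXRi lay below them at 24 h. Against DMSO the log2 fold change was 0.49 ± 0.05 with 9cisRA (adjusted p = 3.95e-05) and 0.45 ± 0.05 with atRA (adjusted p = 0.000198) at 6 h. At 24 h it was 0.42 ± 0.05 with 9cisRA, 0.40 ± 0.05 with atRA and -0.23 ± 0.05 with RXRi (limma adjusted p = 2.51e-05, 5.64e-05 and 0.00125). With RXRi at 6 h it was 0.02 (95% interval -0.09 to 0.12).

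Keap1 (Entrez 50868, chr9:21229730-21239332) stayed between group means of 13.3 and 16.5 RPKM, the narrowest range of the 10 genes. Its libraries had 15.8, 15.1, 15.3 and 15 RPKM with 9cisRA, 15, 15.3, 15.8 and 15.6 RPKM with RXRi, and 14.3, 12.4, 12.8 and 13.5 RPKM with DMSO at 24 h. Both compounds thus lay above all DMSO libraries. The differences were 0.20 ± 0.05 with 9cisRA (limma adjusted p = 0.00426) and 0.21 ± 0.05 with RXRi (adjusted p = 0.00179). The 9cisRA call was lost when libraries were scaled to their read sums, with a log2 fold change of 0.074 and an adjusted p of 0.200. Exons of Keap1 overlap the antisense gene Gm16754 on the opposite strand, and the sources used here do not say whether counting used strand, so reads of the overlap cannot be assigned.

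**Figure D1:**
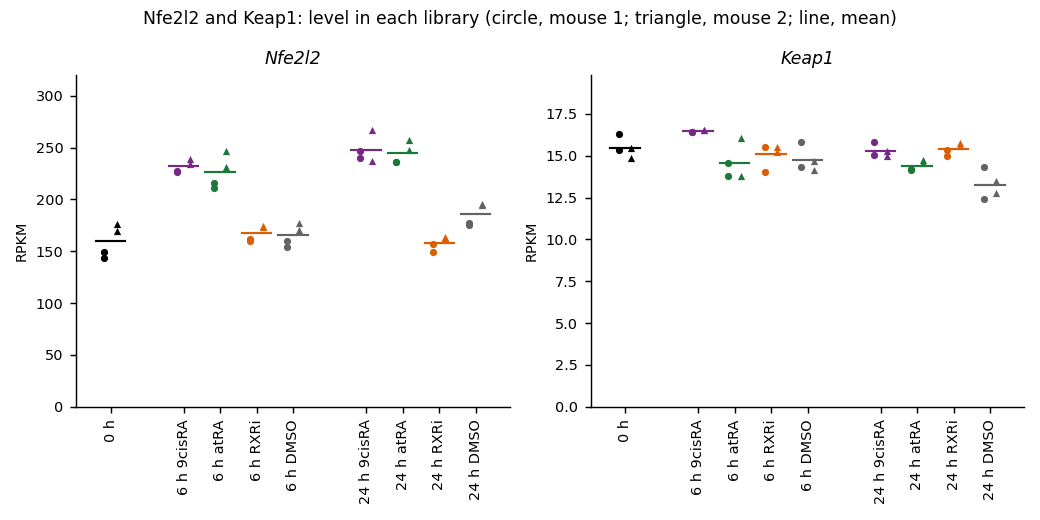
Level of Nfe2l2 and Keap1 in RPKM (y axes, from 0) in each of 36 libraries by time and treatment; circles are mouse 1, triangles mouse 2, and lines the means. Nfe2l2 averages 232 and 226 RPKM with 9cisRA and atRA at 6 h and 166 RPKM with DMSO, while Keap1 stays between 13.3 and 16.5 RPKM.

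Counted over all 10 genes, both retinoic acids raised most and lowered none, and the RXR antagonist had effects of both signs. With 9cisRA at 6 h, 8 of 10 were called higher and 0 lower, where 5.01% and 3.03% of all genes tested were, with a median log2 fold change of 0.46 against -0.01 over all genes. With atRA at 6 h, 6 were higher and 0 lower (background 2.79% and 1.87%, median 0.28 against -0.01 over all genes). With RXRi at 6 h, 3 were higher and 1 lower, where 10.6% and 14.6% of all genes were (median 0.02).

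At 24 h the backgrounds were far larger. With 9cisRA 9 of 10 genes were called higher and 0 lower (background 24.4% and 23.5%, median 0.38), and with atRA 8 and 0 (background 19.4% and 18.6%, median 0.41). With RXRi 3 genes were higher and 5 lower, beside 31.1% and 30.4% of all genes (median -0.15), which is a share of higher calls close to the background. All calls had the same sign in both mice. The balance of all calls at 24 h depended on the scaling. It was 2775 higher and 2671 lower with 9cisRA and 2203 and 2111 with atRA, but 1581 and 4585, and 1335 and 3547, after scaling to read sums, which shifted the median of all genes by -0.12 for 9cisRA at 24 h. With that scaling the 10 genes still counted 8 higher and 0 lower with 9cisRA, 8 and 0 with atRA, and 3 and 6 with RXRi. All genes then counted 3137 higher and 3902 lower with RXRi. The comparisons with each compound share the DMSO libraries and are not independent of each other.

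**Figure D2:**
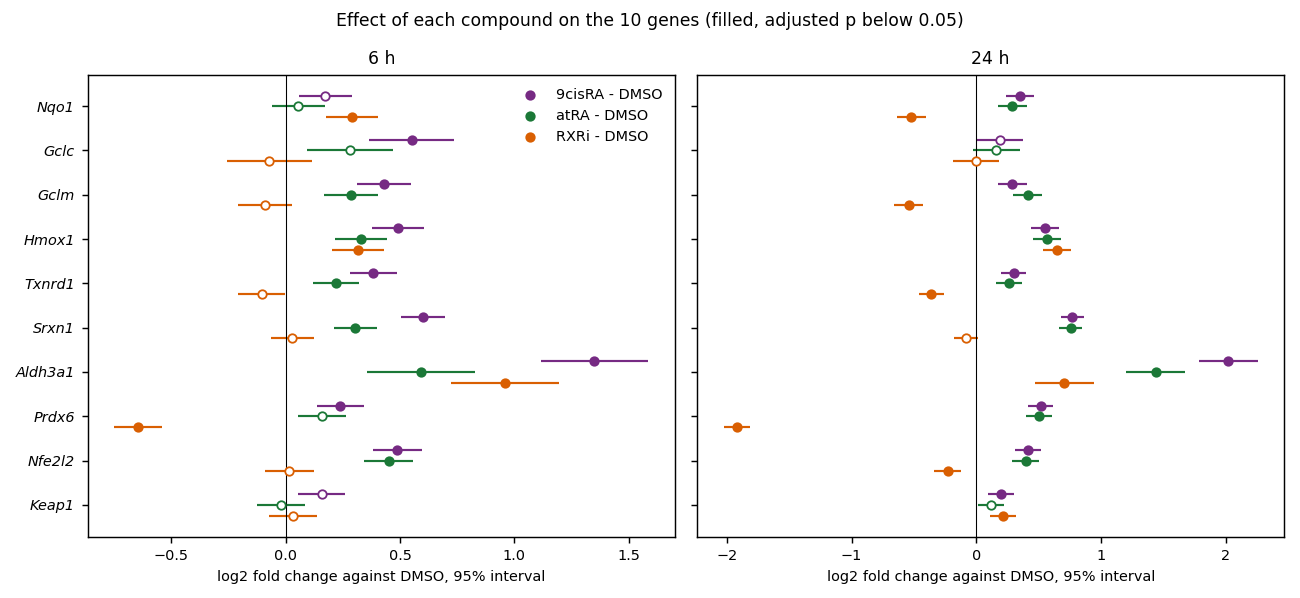
Log2 fold change against DMSO (x axes, on log2(RPKM + 0.5)) of the 10 genes (rows) at 6 h (left) and 24 h (right), by compound; lines are 95% intervals and filled points have an adjusted p below 0.05. The retinoic acid points lie right of 0 apart from Keap1 with atRA at 6 h, and Prdx6 with RXRi at 24 h lies farthest left, at -1.92. The x axes differ between panels.

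Of the 2 subunits of the enzyme that makes the first step of glutathione synthesis, the modifier Gclm was called with both retinoic acids at both times. The catalytic Gclc was called with 9cisRA at 6 h. Gclm (Entrez 14630, chr3:122245487-122267215) had 70.4, 68.7, 67.1 and 66.9 RPKM with 9cisRA, 60.2, 57.4, 63 and 66.6 RPKM with atRA, and 50.9, 47.7, 50.7 and 53.1 RPKM with DMSO at 6 h. The retinoic acid libraries all lay above the DMSO libraries, by 0.43 ± 0.05 with 9cisRA (limma adjusted p = 0.000219) and 0.28 ± 0.05 with atRA (adjusted p = 0.00858). By 24 h the antagonist had moved it the other way. Its libraries held 36.5, 35.4, 34.8 and 35.4 RPKM with RXRi, against 51.6, 50.2, 53.4 and 52.4 RPKM with DMSO, a change of -0.54 ± 0.05 (adjusted p = 1.45e-06). The retinoic acids gave 0.29 ± 0.05 (9cisRA, adjusted p = 0.000775) and 0.41 ± 0.05 (atRA, adjusted p = 8.41e-05) at 24 h. With RXRi at 6 h the log2 fold change was -0.09 (95% interval -0.21 to 0.03).

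Gclc (Entrez 14629, chr9:77754535-77794489) had 147, 152, 159.8 and 160.0 RPKM with 9cisRA at 6 h, against 98.7, 92.7, 113 and 119 RPKM with DMSO. These groups did not overlap, and the difference was 0.55 ± 0.09 (limma adjusted p = 0.00124). No other compound comparison of Gclc was called. With atRA at 6 h it was 0.28 (95% interval 0.09 to 0.47, adjusted p = 0.0836), and its libraries overlapped those of DMSO. At 24 h the intervals were 0.004 to 0.38 with 9cisRA, -0.02 to 0.35 with atRA and -0.19 to 0.18 with RXRi. The 24 h effect differed from that at 6 h by -0.36 with 9cisRA and -0.12 with atRA. Neither difference was called in the main fit (limma adjusted p = 0.0568 and 0.521). Its SE of 0.09 was exceeded among the 10 genes by that of Aldh3a1 alone.

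Txnrd1 and Srxn1 keep thioredoxin and peroxiredoxins reduced, Txnrd1 as the cytosolic thioredoxin reductase and Srxn1 as sulfiredoxin, which repairs overoxidized peroxiredoxins. Srxn1 (Entrez 76650, chr2:152105524-152111376) had 136, 125, 133 and 134 RPKM with 9cisRA, 104, 106, 111 and 108 RPKM with atRA, and 82.3, 83.1, 92.2 and 89.6 RPKM with DMSO at 6 h. At 24 h it had 165, 156, 157 and 159 RPKM with 9cisRA, 156, 156, 155 and 164 RPKM with atRA, and 86.8, 98.7, 89.5 and 97.9 RPKM with DMSO. In both sets the retinoic acid libraries stood clear of the DMSO libraries, and at 6 h the isomers also stood clear of each other. The log2 fold change was 0.60 ± 0.04 with 9cisRA and 0.30 ± 0.04 with atRA at 6 h (limma adjusted p = 2.57e-06 and 0.00151), and 0.77 ± 0.04 and 0.76 ± 0.04 at 24 h (adjusted p = 6.14e-08 and 9.29e-08). With RXRi it was 0.03 (interval -0.07 to 0.12) at 6 h and -0.08 (interval -0.17 to 0.02) at 24 h, with libraries that overlapped DMSO at both times.

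Txnrd1 (Entrez 50493, chr10:82833951-82897724) averaged 220 ± 6.7 RPKM with 9cisRA, 196 ± 5.1 RPKM with atRA and 168 ± 6.9 RPKM with DMSO at 6 h (SD, n = 2 mice). The differences were 0.38 ± 0.05 with 9cisRA (limma adjusted p = 0.000166) and 0.22 ± 0.05 with atRA (adjusted p = 0.017, and 0.060 without the mouse as a block). At 24 h its mean was 166 ± 3.7 RPKM with 9cisRA, 162 ± 2.9 RPKM with atRA, 105 ± 1.4 RPKM with RXRi and 135 ± 2.1 RPKM with DMSO. No group with a compound overlapped DMSO at that time. Txnrd1 was higher by 0.30 ± 0.05 with 9cisRA and 0.26 ± 0.05 with atRA, and changed by -0.36 ± 0.05 with RXRi (adjusted p = 0.000202, 0.000783 and 1.8e-05).

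**Figure D3:**
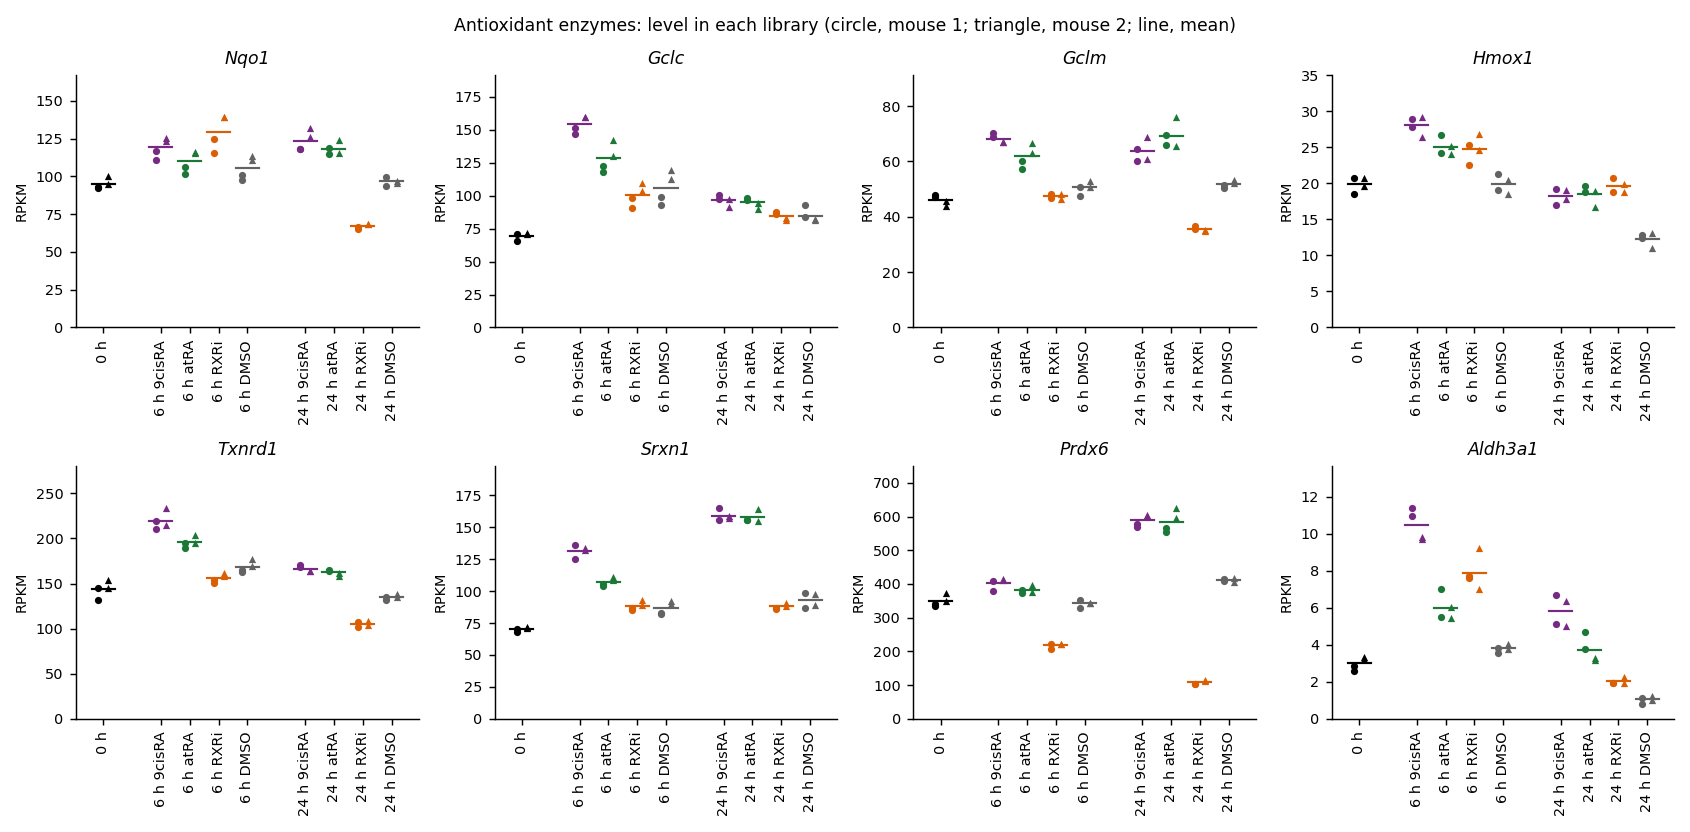
Level of the 8 enzyme genes in RPKM (y axes, from 0) in each library by time and treatment; circles are mouse 1, triangles mouse 2, lines the means. Srxn1 reaches a mean of 159 RPKM with 9cisRA and 158 RPKM with atRA at 24 h beside 93.2 RPKM with DMSO, and Prdx6 falls to 108 RPKM with RXRi beside 411 RPKM with DMSO.

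Prdx6, a peroxiredoxin that reduces phospholipid hydroperoxides, had the largest fall of the 10 genes against DMSO, with the RXR antagonist at 24 h. Prdx6 (Entrez 11758, chr1:161240112-161251210) had 223, 208, 222 and 221 RPKM with RXRi against 328, 353, 344 and 343 RPKM with DMSO at 6 h. At 24 h it had 568, 577, 603 and 605 RPKM with 9cisRA, 553, 565, 596 and 625 RPKM with atRA, 103, 102, 113 and 116 RPKM with RXRi, and 408, 415, 417 and 405 RPKM with DMSO. The RXRi libraries lay far below DMSO and the retinoic acid libraries above it, with no overlap. The log2 fold change with RXRi was -0.65 ± 0.05 at 6 h and -1.92 ± 0.05 at 24 h (limma adjusted p = 5.08e-07 and 2.55e-12). It was 0.52 ± 0.05 with 9cisRA and 0.51 ± 0.05 with atRA at 24 h (adjusted p = 3.37e-06 and 6.31e-06). At 6 h it was 0.24 ± 0.05 with 9cisRA (adjusted p = 0.00728, and 0.059 without the mouse as a block) and 0.16 (interval 0.06 to 0.26, adjusted p = 0.0791) with atRA.

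Prdx6b, a near-identical relative of Prdx6, was listed at 1.24 to 10.4 RPKM and changed by -0.57 ± 0.08 and -1.68 ± 0.08 with RXRi at 6 h and 24 h (limma adjusted p = 0.000123 and 5.95e-10). How the authors' counting assigned reads shared by the pair is not given in the sources used here, so the reads of each are uncertain. Markers of absorptive enterocytes fell with Prdx6 under RXRi. With RXRi at 24 h, 10 of the 11 tested fell and 1 rose (median -4.22), beside 30.4% and 31.1% of all genes. The summed level of all 12 markers was 3370 to 5270 RPKM with RXRi and 9350 to 15100 RPKM with DMSO. With 9cisRA the sum was 22000 to 29100 RPKM, and 5 markers were higher and 2 lower (background 24.4% and 23.5%, median 0.50). With atRA it was 18000 to 25600 RPKM, with 4 higher and 2 lower (background 19.4% and 18.6%). The median change of the tested markers with atRA was -0.18. In bulk RNA, fewer cells of a type and less RNA per cell cannot be told apart, and the part of these cells in the result was not tested. At 6 h, where Prdx6 was already lower with RXRi, the enterocyte sums were 908 to 1440 RPKM with RXRi and 1300 to 2260 RPKM with DMSO. There 8 of the 11 markers fell, while 14.6% of all genes were called lower.

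Nqo1, a quinone reductase, and Aldh3a1, an aldehyde dehydrogenase, are known targets of both NRF2 and the aryl hydrocarbon receptor, and with the antagonist Aldh3a1 was higher at both times while Nqo1 was higher at 6 h and lower at 24 h. Nqo1 (Entrez 18104, chr8:107388225-107403205) had 125, 116, 139.5 and 139 RPKM with RXRi against 101, 97.9, 113 and 111 RPKM with DMSO at 6 h. By 24 h it had 65.5, 66.3, 68.6 and 68.5 RPKM with RXRi against 93.7, 99.9, 97.2 and 95.9 RPKM with DMSO. Its RXRi libraries therefore lay above DMSO at the earlier time and below it at the later. The log2 fold changes were 0.29 ± 0.05 and -0.52 ± 0.05 (limma adjusted p = 0.00129 and 1.82e-06), and their difference was -0.81 ± 0.08 (adjusted p = 3.7e-06). With the retinoic acids Nqo1 was called at 24 h, at 0.35 ± 0.05 with 9cisRA and 0.29 ± 0.05 with atRA (adjusted p = 0.000168 and 0.00106). At 6 h its log2 fold change was 0.17 (interval 0.06 to 0.29, adjusted p = 0.0691) with 9cisRA and 0.06 (interval -0.06 to 0.17) with atRA.

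Aldh3a1 (Entrez 11670, chr11:61208510-61218418) was the least abundant gene, with 35 to 570 reads per library, and the one with the widest range of levels, 9.99 between its highest and lowest group mean. It had 11.4, 11, 9.84 and 9.73 RPKM with 9cisRA, 5.52, 7.02, 5.45 and 6.01 RPKM with atRA, 7.72, 7.6, 9.25 and 7.03 RPKM with RXRi, and 3.8, 3.58, 3.8 and 4.02 RPKM with DMSO at 6 h. At 24 h it had 5.12, 6.66, 6.37 and 5.04 RPKM with 9cisRA, 3.76, 4.67, 3.16 and 3.29 RPKM with atRA, 1.95, 1.95, 1.91 and 2.25 RPKM with RXRi, and 0.801, 1.13, 1.03 and 1.23 RPKM with DMSO. Every compound library was above every DMSO library of its time. The log2 fold changes at 6 h were 1.35 ± 0.11 with 9cisRA, 0.59 ± 0.11 with atRA and 0.96 ± 0.11 with RXRi (limma adjusted p = 4.83e-06, 0.00742 and 2.3e-05). At 24 h they were 2.02 ± 0.11, 1.44 ± 0.11 and 0.71 ± 0.11 in the same order (adjusted p = 3.88e-08, 1.14e-06 and 8.43e-05). At levels this low the added 0.5 RPKM makes these changes smaller than those of the levels themselves.

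A list of 7 aryl hydrocarbon receptor genes, all tested, was counted too. It includes the receptor gene Ahr and the members Nqo1 and Aldh3a1 themselves. With RXRi at 6 h all 7 were higher, beside 10.6% of all genes. Their median was 1.94, and Cyp1a1 was at 4.19 ± 0.11 (limma adjusted p = 5.3e-11). At 24 h 6 were higher and 1, Nqo1, was lower, beside 31.1% and 30.4% of all genes. With atRA at 6 h 1 of the 7, Aldh3a1, was higher and 1, Cyp1a1, lower by a log2 fold change of -0.46 ± 0.11 (adjusted p = 0.03). Of all genes, 2.79% were higher and 1.87% lower with atRA at 6 h. Counts of this list with 9cisRA at either time, and with atRA at 24 h, are not given here. Aldh3a1 was called higher in each of those comparisons, by 1.35 and 2.02 with 9cisRA at 6 h and 24 h and 1.44 with atRA. Nqo1 was called higher with both retinoic acids at 24 h but not with 9cisRA at 6 h.

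Hmox1, the inducible heme oxygenase, was higher with all 3 compounds at both times. Hmox1 (Entrez 15368, chr8:75093618-75100593) had 28.9, 27.8, 29.2 and 26.4 RPKM with 9cisRA, 26.7, 24.2, 24.1 and 25.1 RPKM with atRA, 25.3, 22.6, 24.6 and 26.8 RPKM with RXRi, and 21.3, 19.1, 18.5 and 20.4 RPKM with DMSO at 6 h. At 24 h it had 16.9, 19.2, 19.1 and 17.9 RPKM with 9cisRA, 19.6, 18.8, 16.7 and 19 RPKM with atRA, 18.8, 20.7, 20 and 18.8 RPKM with RXRi, and 12.4, 12.8, 13.1 and 11 RPKM with DMSO. No compound library overlapped DMSO at either time, although levels of all groups were lower at 24 h than at 6 h. The log2 fold changes were 0.49 ± 0.05, 0.33 ± 0.05 and 0.32 ± 0.05 with 9cisRA, atRA and RXRi at 6 h (limma adjusted p = 5.2e-05, 0.003 and 0.000567). At 24 h they were 0.55 ± 0.05, 0.57 ± 0.05 and 0.65 ± 0.05 (adjusted p = 3.95e-06, 4.8e-06 and 1.72e-07).

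Macrophages express Hmox1 strongly, so their markers are given beside it. Of 7 macrophage and leukocyte markers 5 were measured, and Ptprc and Adgre1 were not among the genes listed. At 24 h 3 of 5 were higher with each retinoic acid, beside 24.4% of all genes with 9cisRA and 19.4% with atRA. With RXRi 4 were lower and 1, Cd68, higher, beside 30.4% and 31.1% of all genes. The summed levels were 26.6 to 37.6 RPKM with 9cisRA, 29.2 to 40.8 RPKM with atRA, 13.7 to 16.5 RPKM with RXRi and 17.1 to 24.3 RPKM with DMSO. Whether such cells were present, and their part in the level of Hmox1, was not tested.

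Ranked by mean level over the 9 conditions, the genes did not share one order. With 9cisRA at 6 h, Gclc, Txnrd1, Hmox1, Aldh3a1 and Keap1 had their highest means, and for Gclc, Txnrd1, Aldh3a1 and Keap1 these libraries did not overlap the condition next in order. Srxn1, Prdx6 and Nfe2l2 had their highest means with 9cisRA at 24 h, where the libraries overlapped those with atRA, the next in order. Gclm was highest with atRA at 24 h and Nqo1 with RXRi at 6 h, and both overlapped the next condition.

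At the low end, Nqo1, Gclm, Txnrd1 and Prdx6 were lowest with RXRi at 24 h, with no overlap with the condition above. Hmox1 and Aldh3a1 were lowest with DMSO at 24 h and Gclc and Srxn1 at 0 h, again without overlap. Nfe2l2 was lowest with RXRi at 24 h and Keap1 with DMSO at 24 h, and these overlapped their neighbours. How often all genes rank or separate in these ways, at either end, was not counted. With RXRi at 24 h 30.4% of all genes were called lower than with DMSO. The highest mean was 9.99 times the lowest for Aldh3a1, 5.43 times for Prdx6, between 1.93 and 2.28 times for Nqo1, Gclc, Gclm, Hmox1, Txnrd1 and Srxn1, 1.57 times for Nfe2l2 and 1.24 times for Keap1.

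The isomers were given at the same dose, and they differed for Aldh3a1 at both times and for Srxn1 at 6 h. With 9cisRA against atRA, 2 of 10 genes were called higher and 0 lower at 6 h, where 1.55% and 0.167% of all genes were (median 0.16 against 0.00 over all genes). At 24 h 1 of 10 was higher and 0 lower, beside 0.299% and 0.167% of all genes (median 0.02). These are the 2 pairs compared, and adjustment over the genes of both together kept the 3 calls (limma adjusted p = 0.00636 and 0.0287 for Aldh3a1 at 6 h and 24 h, and 0.00718 for Srxn1). For the 24 h call this joint adjustment was less strict than that within its own pair (0.0412), so it is no added check there. Aldh3a1 was 0.76 ± 0.11 higher with 9cisRA at 6 h (limma adjusted p = 0.00573) and 0.58 ± 0.11 at 24 h (adjusted p = 0.0412). The 24 h call ended without the mouse as a block (adjusted p = 0.096), without mouse 2 (0.245), and without any of 3 single libraries, atRA replicate 1 and 9cisRA replicates 2 and 3 (highest adjusted p = 0.118). Srxn1 was 0.30 ± 0.04 higher with 9cisRA at 6 h (adjusted p = 0.00577), and at 24 h its difference was 0.01 with an interval of -0.08 to 0.11.

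For the other 8 genes no difference between the isomers was called at either time, but several intervals at 6 h excluded 0. At 6 h they were 0.08 to 0.46 for Gclc, 0.07 to 0.28 for Keap1, 0.06 to 0.27 for Txnrd1, 0.05 to 0.28 for Hmox1, 0.03 to 0.26 for Gclm and 0.0015 to 0.23 for Nqo1, with limma adjusted p of 0.134, 0.0886, 0.0946, 0.134, 0.206 and 0.311. For Nfe2l2 the interval was -0.07 to 0.14 at 6 h and -0.09 to 0.13 at 24 h. At 24 h the interval of Gclm lay below 0 (-0.24 to -0.01, adjusted p = 0.39). RXRi was given at another dose, so its values stand beside those of the retinoic acids without a comparison.

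**Figure D4:**
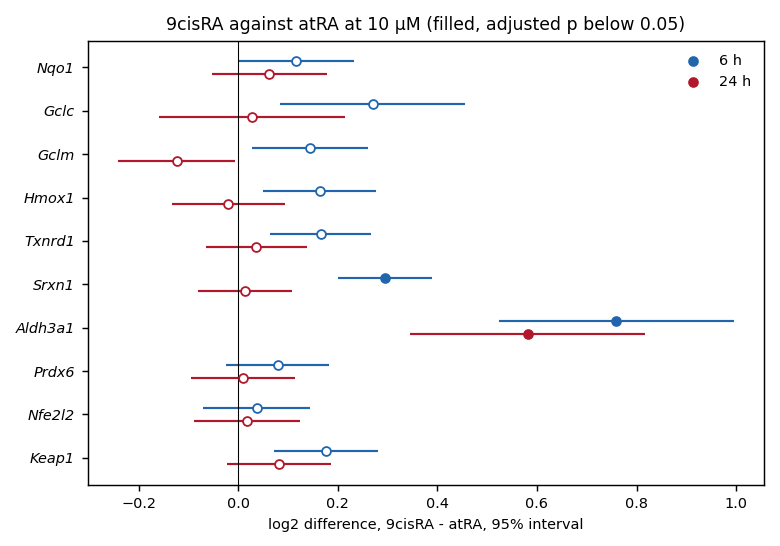
Log2 difference between 9cisRA and atRA (x axis, 9cisRA minus atRA) for each gene at 6 h and 24 h; lines are 95% intervals and filled points have an adjusted p below 0.05. Aldh3a1 lies at 0.76 and 0.58, and the 24 h points of the other 9 genes lie between -0.12 and 0.08.

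In DMSO cultures the genes did not move as a block over time. Aldh3a1 averaged 3.00 RPKM at 0 h, 3.80 RPKM at 6 h and 1.05 RPKM at 24 h, and Hmox1 19.9, 19.8 and 12.3 RPKM. Gclc averaged 69.8, 105.9 and 84.9 RPKM at these times, and Srxn1 70.4, 86.8 and 93.2 RPKM. At 6 h against 0 h 5 of 10 genes were higher and 0 lower, while 22.3% of all genes were higher and 23.4% lower. Gclc, at 0.59 ± 0.09, and Srxn1, at 0.30 ± 0.04, were among them (limma adjusted p = 0.000124 and 0.000133). Nqo1, at 0.15 ± 0.05, lost its call without the mouse as a block (adjusted p = 0.174).

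Between 24 h and 6 h in DMSO, 2 genes were higher and 5 lower, beside 25.4% and 24.5% of all genes. Aldh3a1 changed by -1.48 ± 0.11, Hmox1 by -0.67 ± 0.05, Txnrd1 by -0.32 ± 0.05 and Gclc by -0.31 ± 0.09 (limma adjusted p = 1.48e-07, 2.69e-07, 9.27e-05 and 0.00886). Prdx6 was higher by 0.27 ± 0.05 and Nfe2l2 by 0.16 ± 0.05 (adjusted p = 0.00048 and 0.0144), but neither was called after quantile normalization (0.09 and 0.02), and Nfe2l2 was not called without the mouse as a block (adjusted p = 0.152). At 24 h against 0 h 5 genes were higher and 3 lower, beside 29.2% and 30.3% of all genes. After quantile normalization that count was 1 higher and 4 lower. All calls of all genes for this pair of times were 3317 higher and 3437 lower, and 2681 and 4385 after quantile normalization.

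The effects of the compounds were then compared between 24 h and 6 h. With RXRi the later effect was the lower one for 5 genes and the higher for 1, where 16.5% and 18.6% of all genes were called. Prdx6 differed by -1.28 ± 0.07, Nqo1 by -0.81 ± 0.08 and Gclm by -0.45 ± 0.08, while Hmox1 differed by 0.33 ± 0.07 (limma adjusted p = 3.07e-08, 3.7e-06, 0.000526 and 0.00367). With atRA the later effect was higher for 4 genes and lower for 0 (background 10% and 7.11%), and with 9cisRA for 2 and 0 (background 10.1% and 7.9%). After quantile normalization or scaling to read sums the 9cisRA count was 1 higher, Aldh3a1, and 2 lower, Gclc and Gclm, and Prdx6 was not called. Of all genes, 923 were higher and 937 lower with quantile normalization, and 557 and 2216 with scaling to read sums. With atRA the difference for Srxn1 was 0.45 ± 0.06 (adjusted p = 0.000794), between log2 fold changes of 0.76 at 24 h and 0.30 at 6 h.

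Lists of other genes of the pathway, 81 genes of which 79 were tested, were counted in the same fit. At 6 h 19 of the 79 were higher and 0 lower with 9cisRA (24.1% beside 5.01% of all genes) and 7 and 0 with atRA (8.86% beside 2.79%). With RXRi 13 were higher and 20 lower (16.5% and 25.3%, beside 10.6% and 14.6%). At 24 h 46 were higher and 6 lower with 9cisRA (58.2% and 7.59%, beside 24.4% and 23.5% of all genes) and 43 and 6 with atRA (54.4% and 7.59%, beside 19.4% and 18.6%). With RXRi 26 were higher and 32 lower (32.9% and 40.5%, beside 31.1% and 30.4%), so the share of higher calls was near that of all genes. After scaling to read sums these counts were 29 and 13, 31 and 9, and 22 and 35, and after quantile normalization they were 34 and 6, 32 and 6, and 30 and 30. Of the 11361 genes tested, 1581 and 4585, 1335 and 3547, and 3137 and 3902 were called after scaling to read sums. After quantile normalization 2538 and 2890, 2022 and 2262, and 4248 and 2840 were.

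Enzymes that reduce carbonyls or oxidize aldehydes led the list of carbonyl, quinone and export genes. At 6 h 8 of its 14 genes were higher with 9cisRA and 5 with atRA, beside 5.01% and 2.79% of all genes. Akr1b8, an aldo-keto reductase, averaged 766 ± 14 RPKM with 9cisRA, 541 ± 23 RPKM with atRA and 364 ± 24 RPKM with DMSO (SD, n = 2 mice), changes of 1.07 ± 0.07 and 0.57 ± 0.07 (limma adjusted p = 7.5e-07 and 0.000345). Cbr3, a carbonyl reductase, changed by 1.10 ± 0.08 and 0.47 ± 0.08 (adjusted p = 2.33e-06 and 0.00439), and Aldh3a2, the fatty aldehyde dehydrogenase, by 0.85 ± 0.07 and 0.43 ± 0.07 (adjusted p = 7.58e-06 and 0.00416). With RXRi at 24 h 5 of the 14 were higher and 7 lower (background 31.1% and 30.4%), with Akr1b8 at 1.11 ± 0.07 and Aldh1a1, which makes retinoic acid from retinal, at -3.25 ± 0.12 (adjusted p = 9.16e-09 and 6.42e-11). Akr1b8 therefore moved up with the antagonist at a time when 5 of the 10 genes were lower.

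All 6 genes that supply NADPH were higher with 9cisRA at 24 h and 5 of 6 with atRA, where 24.4% and 19.4% of all genes were. With RXRi 2 were higher and 1 lower (background 31.1% and 30.4%), the lower being Idh1, the cytosolic isocitrate dehydrogenase, at -0.51 ± 0.05 (limma adjusted p = 2.85e-06). Me1, the cytosolic malic enzyme, averaged 157 ± 2.1 RPKM with 9cisRA, 132 ± 6.0 RPKM with atRA, 116 ± 3.2 RPKM with RXRi and 71.8 ± 1.4 RPKM with DMSO. Its log2 fold changes were 1.12 ± 0.05, 0.87 ± 0.05 and 0.68 ± 0.05 (limma adjusted p = 1.36e-08, 1.93e-07 and 1.39e-07). Of 8 heme and iron genes, 5 were higher and 0 lower with 9cisRA at 24 h (background 24.4% and 23.5%), and with RXRi 1 was higher and 4 lower (background 31.1% and 30.4%). Fth1, the heavy chain of ferritin, changed by 0.50 ± 0.06 with 9cisRA and -1.53 ± 0.06 with RXRi (adjusted p = 1.81e-05 and 8.24e-11). Slc40a1, the iron exporter ferroportin, changed by 0.79 ± 0.08 and -1.22 ± 0.08 (adjusted p = 6.36e-06 and 2.14e-08). Ferroportin is also a gene of mature enterocytes, whose summed marker levels, given above, were likewise higher with 9cisRA and lower with RXRi; their part was not tested.

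Of 24 glutathione genes, 14 were higher and 2 lower with 9cisRA at 24 h (background 24.4% and 23.5%), 12 and 2 with atRA (background 19.4% and 18.6%), and 4 and 11 with RXRi (background 31.1% and 30.4%). Gsta1, a glutathione transferase, rose by 0.71 ± 0.07 with each retinoic acid (limma adjusted p = 3.29e-06 with 9cisRA and 5.17e-06 with atRA). Mgst2, a membrane-bound relative, averaged 127 ± 15 RPKM with RXRi and 478 ± 39 RPKM with DMSO, a change of -1.91 ± 0.05 (adjusted p = 6.62e-12). Ggt1, which breaks down extracellular glutathione at the brush border, averaged 0.152 ± 0.039 RPKM with RXRi and 19.6 ± 8.1 RPKM with DMSO (log2 fold change -4.88 ± 0.27, adjusted p = 3.23e-09). The thioredoxin and peroxiredoxin list was divided: 3 of 12 higher and 2 lower with 9cisRA, 3 and 3 with atRA, and 4 and 7 with RXRi. All genes had 24.4% and 23.5%, 19.4% and 18.6%, and 31.1% and 30.4% in the same order. Apart from the lower calls with RXRi, the shares of the list were near these. Of the 3 superoxide and peroxide enzymes tested 2, Cat and Sod1, were higher with each retinoic acid and lower with RXRi, beside the same backgrounds.

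Regulators and partners of NRF2 were mostly higher with the antagonist. Of 12 tested, 10 were higher and 0 lower with RXRi at 24 h, beside 31.1% and 30.4% of all genes, with a median of 0.44 against 0.00 over all genes. Maff, a small Maf partner, changed by 0.95 ± 0.06, Sqstm1, the autophagy adaptor that binds KEAP1, by 0.90 ± 0.06, and Nfe2l1, a relative of NRF2, by 0.79 ± 0.05 (limma adjusted p = 2.37e-08, 4.25e-08 and 3.67e-08). Already at 6 h 8 of the 12 were higher with RXRi, where 10.6% of all genes were. With 9cisRA 7 were higher and 2 lower at 24 h (background 24.4% and 23.5%), and with atRA 6 and 0 (background 19.4% and 18.6%). Sqstm1 rose by 0.59 ± 0.06 and 0.66 ± 0.06 with these (adjusted p = 1.07e-05 and 7.12e-06).

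**Figure D5:**
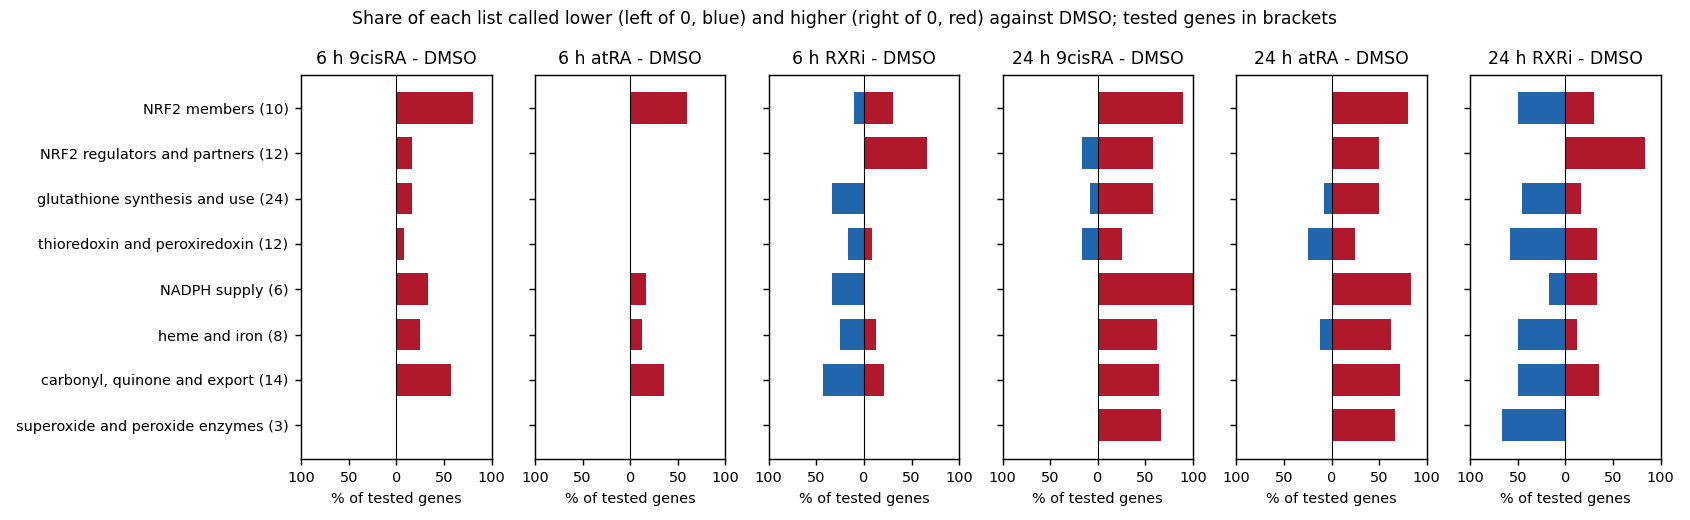
Percent of the tested genes of each list (rows, number tested in brackets) called lower (left of 0) or higher (right of 0) against DMSO, for each compound and time. The regulators and partners reach 10 of 12 higher with RXRi at 24 h, where the other lists have lower calls.

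The genes most like each member over the 18 mouse and condition means were found by Pearson's r, as a description, since these means share libraries, time and treatment. Prdx6 was most like Prdx6b (r = 0.988), Cfb (r = 0.984) and Myo7a (r = 0.981), Srxn1 like Chmp7 (r = 0.977), and Nfe2l2 like Pag1 (r = 0.955). The closest genes were Ppef1 for Aldh3a1 (r = 0.941), Zc3h12a for Txnrd1 (r = 0.925), Muc4 for Gclm (r = 0.921), Hyal1 for Hmox1 (r = 0.910) and Tmem2 for Gclc (r = 0.905). Nqo1 was most like Tnfrsf11a (r = 0.898) and Keap1 like Adrm1 (r = 0.882). Among the members themselves Srxn1 and Nfe2l2 were alike at r = 0.919 and Gclm and Nfe2l2 at r = 0.882, while Hmox1 and Prdx6 had r = -0.170.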

How the data were processed

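The deposited table holds RPKM values of 12652 genes in 36 libraries, made by the authors. Per the submitters' processing notes, STAR 2.5.2b, bcl2fastq 2.17 and the build mm10 were used; the counting and the divisor are not given in the sources used here. Whole reads were recovered for 100% of genes (tolerance 0.05 reads), 19640305 to 30686200 reads per library. Genes with at least 1 RPKM in 4 libraries were tested (11361). Duplicates were averaged on log2(RPKM + 0.5), giving 18 values, and fitted with limma 3.58.1 (R 4.3.3), a mean per condition, the mouse as a block and a variance trend. The 14 comparisons were two-sided, Benjamini-Hochberg adjusted over tested genes, with 95% intervals. The fit was tested on simulated data.

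The mouse is a pairing by animal, as the labels number the mice: the mouse 1 minus mouse 2 difference had a median correlation of 0.441 over pairs of conditions (0.0372 to 0.662). The members and lists were chosen with earlier results of these data known. Every member is named. Of each pathway list, up to 3 called genes with the smallest p per comparison could be named, and the 3 genes most like each member by Pearson's r. Alternatives changed the pseudocount (0.1, 1), filter, scaling, block, treatment of duplicates and groups fitted, used voom on recovered reads, and left out each library and mouse. Figures were drawn with matplotlib 3.10.9.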

Additional observations from a re-analysis of the deposited data

Results flagged for a closer look

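Of the 90 groups of 4 libraries formed by the 10 genes and 9 conditions, 4 had a library far from the other 3 by Dixon's criterion, close to the 1 in 20 that chance gives. Gclc had a low library at 0 h, 65.9 RPKM, beside 70.7 to 71.3 RPKM in the others. Srxn1 had a high library with atRA at 24 h, 164 RPKM beside 155 to 156 RPKM. Aldh3a1 had 2.25 RPKM in 1 library with RXRi at 24 h and 1.91 to 1.95 RPKM in the others. Prdx6 had 208 RPKM in 1 library with RXRi at 6 h, beside 221 to 223 RPKM.

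The effect of a compound differed between 24 h and 6 h in 12 cases, by limma's test of the difference itself. Of all genes, 10% had a higher and 7.11% a lower later effect with atRA. These shares were 10.1% and 7.9% with 9cisRA, and 18.6% and 16.5% with RXRi. With atRA the later effect was higher for Aldh3a1 (0.85 ± 0.15, adjusted p = 0.0036), Srxn1 (0.45 ± 0.06, adjusted p = 0.000794), Prdx6 (0.35 ± 0.07, adjusted p = 0.00538) and Hmox1 (0.24 ± 0.07, adjusted p = 0.0412). The last call ended without the mouse as a block (adjusted p = 0.065) and without any of 7 of its 16 libraries. With 9cisRA it was higher for Aldh3a1 (0.67 ± 0.15, adjusted p = 0.0107) and Prdx6 (0.28 ± 0.07, adjusted p = 0.0148). The Prdx6 call was lost without the block (adjusted p = 0.071), after quantile normalization and with scaling to read sums.

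With RXRi the later effect was lower for Prdx6 (-1.28 ± 0.07, adjusted p = 3.07e-08), Nqo1 (-0.81 ± 0.08, adjusted p = 3.7e-06), Gclm (-0.45 ± 0.08, adjusted p = 0.000526), Txnrd1 (-0.25 ± 0.07, adjusted p = 0.00943) and Nfe2l2 (-0.25 ± 0.07, adjusted p = 0.0154, and 0.171 without the block). It was higher for Hmox1 (0.33 ± 0.07, adjusted p = 0.00367). Of these 6, Nqo1 was the gene whose effect was called with opposite signs at the times.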

How the results depend on the processing

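Of 140 member results, 78 were called. No called value changed sign in 3026 recomputed values, and 51 values called under neither setting did. The number of the 10 genes called moved most between the isomers: 2 at 6 h became 1 with a mean of at least 5 RPKM and 5 with 36 libraries as separate samples, and 1 at 24 h became 0 with a mean of at least 5 RPKM (which leaves out Aldh3a1), scaling to read sums, no replicate block or without mouse 2. For DMSO, 5 at 6 h against 0 h became 3 with scaling to read sums, and 8 at 24 h against 0 h became 5 with quantile normalization. For the change of effect between times, 4 with atRA became 2 with quantile normalization, and 2 with 9cisRA became 1 with a mean of at least 5 RPKM, without the block or with only the groups compared, and 5 with 36 libraries. Apart from the filter, the cause was not tested.

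Leaving out 1 library at a time gave 6 to 7 genes with atRA, 8 to 10 with 9cisRA and 4 with RXRi at 6 h, and 8 to 9, 9 to 10 and 8 to 9 at 24 h. The isomers gave 2 to 3 at 6 h and 0 to 1 at 24 h. DMSO gave 3 to 6 (6 h against 0 h, 3 without the first 6 h library), 8 to 9 (24 h against 0 h) and 6 to 8 (24 h against 6 h), and the changes of effect 3 to 5 with atRA, 2 to 3 with 9cisRA and 6 to 7 with RXRi. Of the 78 calls 73 held without every library. The replicate block by mouse mattered for 9 calls, which were lost without it; none was gained. Quantile normalization lost 10 calls and gained 7, scaling to read sums lost 10 and gained 5, and voom lost 2 and gained 2. Fits without a mouse take its spread from duplicates of 1 culture. With 35 reads in its shallowest library, Aldh3a1 is limited most by depth.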
